A study of Mus musculus with 12 samples.

Results

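The 31 transcripts described here mark the cells that surround microglia in the brain, and they were measured in RNA-seq libraries of sorted microglia. Of these, 12 mark neurons, 6 mark myelinating oligodendrocytes, 4 mark the oligodendrocyte lineage and its precursors, 6 mark astrocytes and 3 mark endothelial cells. The genes were picked by symbol for the cell types that they mark, with earlier results of these data known. Among them, *Sorbs2* and *Fez1* had already been named for their change in these libraries. All 31 were found in the deposited table of 55487 genes through the GENCODE M21 annotation of the mouse genome GRCm38.

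The 12 libraries came from microglia of P13 (postnatal day 13) YARG mice, dissected from the basal forebrain and striatum (labelled BF/striatum). YARG mice carry YFP inserted behind the stop codon of the endogenous *Arg1* gene, so that YFP reports the activity of that locus, and all 4 groups carried this allele. CX3CR1+ cells without CD206, the mannose receptor of border macrophages, were sorted into ARG1-YFP+ (ARG1+) and ARG1-YFP- (ARG1-) microglia, with 3 female and 3 male libraries of each. According to the study's methods, the tissue of several mice of a sex was pooled for each library, and the labels do not say which libraries came from the same litter.

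Each of these cell types is known by the products of its own specialised work. Neurons are marked by proteins of synaptic vesicle release, of the axonal cytoskeleton and of transmitter synthesis. Oligodendrocytes wrap axons in myelin and make large amounts of a few myelin proteins, astrocytes clear glutamate and move water and ions, and endothelial cells line the vessels. Microglia touch all of these cells and engulf debris, synapses and precursor cells during postnatal development, so that such transcripts in a microglial library do not name the cell that made them. The source of each transcript was not tested here. In bulk libraries, fewer cells of a type and less RNA per cell cannot be told apart.

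The libraries held 28356659 to 60625170 counts. A gene at 3 counts or fewer was read as not detected in a library, which corresponds to 0.0511 to 0.102 CPM (the count relative to the TMM-normalised library total). Intervals and limits of this kind cover counting error only, since the reads carry no molecular identifiers. The 10 microglial markers checked were over 100 counts in every library and summed to 63120 to 88060 CPM in ARG1- and 53590 to 65900 CPM in ARG1+ libraries. In edgeR's quasi-likelihood test with sex as a term, 6 of the 10 were lower in ARG1+ microglia, led by *Gpr34* (log2 fold change -0.92, adjusted p = 6.55e-04), *Tmem119* (-0.77, adjusted p = 0.00109) and *Siglech* (-0.73, adjusted p = 4.26e-04), and 1 was higher. *Arg1* itself had 52 counts in ARG1+ female replicate 15, 2 in ARG1+ female replicate 8 and 0 in the other 10 libraries, so that it gave no check of the sort labels in the remaining libraries. At equal depth, 15067 to 16393 genes were over 3 counts in the ARG1- libraries and 16446 to 17958 in the ARG1+ libraries, and these ranges did not overlap.

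The marker transcripts were a small part of every library, and in edgeR the share of them called between the populations was no higher than that of all genes. Together the 31 genes held 0.0470% to 0.0596% of the counts of an ARG1- library and 0.0361% to 0.0458% of those of an ARG1+ library. Of the 31, 26 passed edgeR's filter on low counts, which *Nrxn3*, *Gad1*, *Cldn11*, *Cspg4* and *Cldn5* did not. At an adjusted p under 0.05, 4 genes were lower in ARG1+ microglia, *Cnp*, *Slc1a3*, *Fez1* and *Sorbs2*, where the background share of lower calls over all 16908 genes tested was 9.42%. No marker was called higher, against a background of 6.44%, although *Gad2* and *Pecam1* had a higher fitted level at an unadjusted p under 0.05 and DESeq2's Wald test called *Pecam1* (adjusted p = 0.0298). In either direction 15.9% of all genes were called, and 15.4% of the 26. Without *Fez1* and *Sorbs2*, whose change was known when the genes were picked, 2 of 24 (8.33%) were called. For the same 4 genes, all 6 ARG1+ libraries lay below all 6 ARG1- libraries, as for 6.56% of all genes tested, though for *Sorbs2* the nearest libraries stood at 2 counts and 1 count, under the floor of 3 counts used here, and for no marker did they all lie above, as for 3.48%. At an unadjusted p under 0.05 stood 9 of the 26, against 4919 of all 16908 genes tested. The median log2 fold change of the 26 was -0.55, with 8 fitted higher and 18 lower. That of all genes tested was 0.06, with 9065 fitted higher and 7843 lower. With *Sorbs2* at its bound (given with the gene) in place of its fitted value, the median of the 26 is the same. The calls over all genes were 1089 higher and 1593 lower in edgeR, and 2155 higher and 1976 lower in DESeq2's Wald test.

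**Figure D1:**
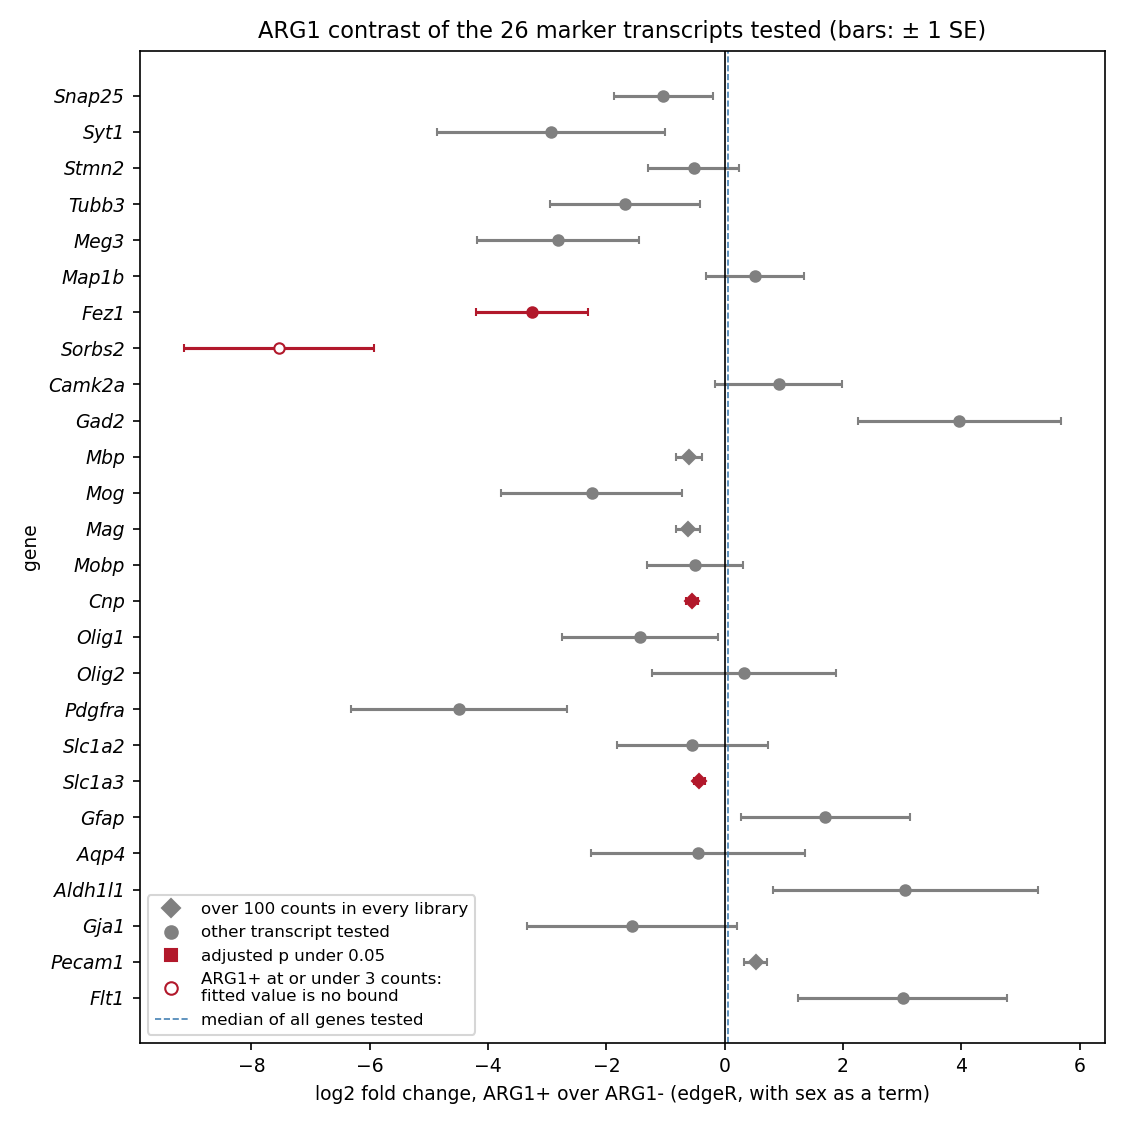
The plot shows the log2 fold change of each of the 26 marker transcripts tested, ARG1+ over ARG1- (edgeR, sex as a term), with bars of 1 SE. Diamonds are the 5 genes with over 100 counts in every library, red marks an adjusted p under 0.05, the open circle marks *Sorbs2*, whose ARG1+ libraries all lie at or under 3 counts, and the dashed line is the median of all genes tested (0.06). The diamonds have short bars and lie between -0.62 and 0.53, while most of the other genes have bars of about 1 log2 unit or more that often cross 0.

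The genes fell into 2 kinds by their counts. *Cnp*, *Slc1a3*, *Mbp*, *Mag* and *Pecam1* had over 100 counts in every library, and this split was made after the counts were seen. Of the other 26, *Cldn5* had 0 counts in every library, and each of the rest was over 3 counts in some libraries and at or under 3 in others. Of the 21 of these that were tested, 19 (90.5%) had at least 1 library at 0, their median coefficient of variation over the 12 libraries was 108%, and the median share of a gene's summed CPM in its highest library was 29.1%. Among all 4408 genes tested in the same range of mean level, 0.414 to 4.33 CPM, these values were 50.1%, 75.0% and 20.3%.

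*Cnp* encodes CNPase, an enzyme of the myelin sheath, and it had the highest level of the 31 genes per exon length (44.9 CPM per kilobase as a mean of all libraries, above 93.7% of genes tested). It lies on chromosome 11 (100574904 to 100591729, plus strand), where 4.23% of its exon bases overlap exons of *Dnajc7* on the opposite strand, and the kit used does not keep the strand of a read. In ARG1- libraries it had 171 CPM at the lowest, 190 at the median and 240 at the highest, and in ARG1+ libraries 114, 134 and 143. The highest ARG1+ library thus lay below the lowest ARG1- library. Its mean was 194 ± 26.1 CPM (SD, n = 6) in ARG1- against 133 ± 10.9 CPM in ARG1+ microglia. The log2 fold change was -0.55 (SE 0.10, adjusted p = 0.00467, edgeR). *Cnp* remained called without each of the 12 libraries in turn and in each of the 7 other alternative fits.

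*Slc1a3* encodes GLAST, the glutamate transporter of astrocytes and radial glia, and lies on chromosome 15 (8634124 to 8710764, minus strand). Its level was 17.9 CPM per kilobase, above 83.3% of genes tested. ARG1- libraries ranged from 155 to 209 CPM around a median of 173, and ARG1+ libraries from 124 to 136 around a median of 132, without overlap. The ARG1+ libraries lay close together, with a mean of 131 ± 4.95 CPM (SD, n = 6) against 176 ± 20.1 in ARG1- microglia. The log2 fold change was -0.43 (SE 0.09, adjusted p = 0.00817, edgeR), and this call too held without each library and in all 7 other alternatives.

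*Mbp* encodes myelin basic protein, which compacts the sheath, and its gene also holds the Golli transcripts, which immune cells make. It had a median of 75.2 CPM in ARG1- libraries, with 37.4 in female replicate 1 as the lowest and 78.9 as the highest. In ARG1+ libraries the median was 37.6 CPM and the range 34.0 to 63.7. The populations overlapped, since ARG1- female replicate 1 lay among the ARG1+ libraries and ARG1+ female replicate 8 above 2 ARG1- libraries. With a log2 fold change of -0.60 (SE 0.22), *Mbp* missed the limit (adjusted p = 0.0838, edgeR), and it passed without ARG1- female replicate 1 and without ARG1+ female replicate 8, with an adjusted p between 0.0234 and 0.191 over the fits that left out 1 library.

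*Mag* encodes the myelin-associated glycoprotein of the inner myelin membrane (chromosome 7, 30899176 to 30914873, minus strand). ARG1- libraries had 20.3 to 45.0 CPM with a median of 37.5, and ARG1+ libraries 15.1 to 28.8 with a median of 23.5. Only ARG1- female replicate 13 fell within the range of the ARG1+ libraries. The log2 fold change was -0.62 (SE 0.20, adjusted p = 0.0568, edgeR). It was called with an added term that set the libraries numbered 13 to 16 apart (adjusted p = 0.0218) and by DESeq2's Wald test (adjusted p = 0.0267), and also without ARG1- female replicate 13 or without ARG1+ female replicate 8.

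*Pecam1* encodes CD31, an adhesion molecule of endothelial junctions that leukocytes and platelets also carry (chromosome 11, 106654217 to 106750628, minus strand). It was the 1 gene of these 5 with a higher mean in ARG1+ microglia, 53.2 ± 16.2 CPM (SD, n = 6) against 36.5 ± 10.8. ARG1+ libraries ranged from 36.2 to 80.6 CPM and ARG1- libraries from 25.4 to 56.1, where female replicate 1 stood above the rest. The log2 fold change of 0.53 (SE 0.20) missed the limit (adjusted p = 0.0913, edgeR). When genes were required to have 10 counts or more in all libraries, its adjusted p was 0.0484, and without ARG1- female replicate 1 it was 0.0478.

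**Figure D2:**
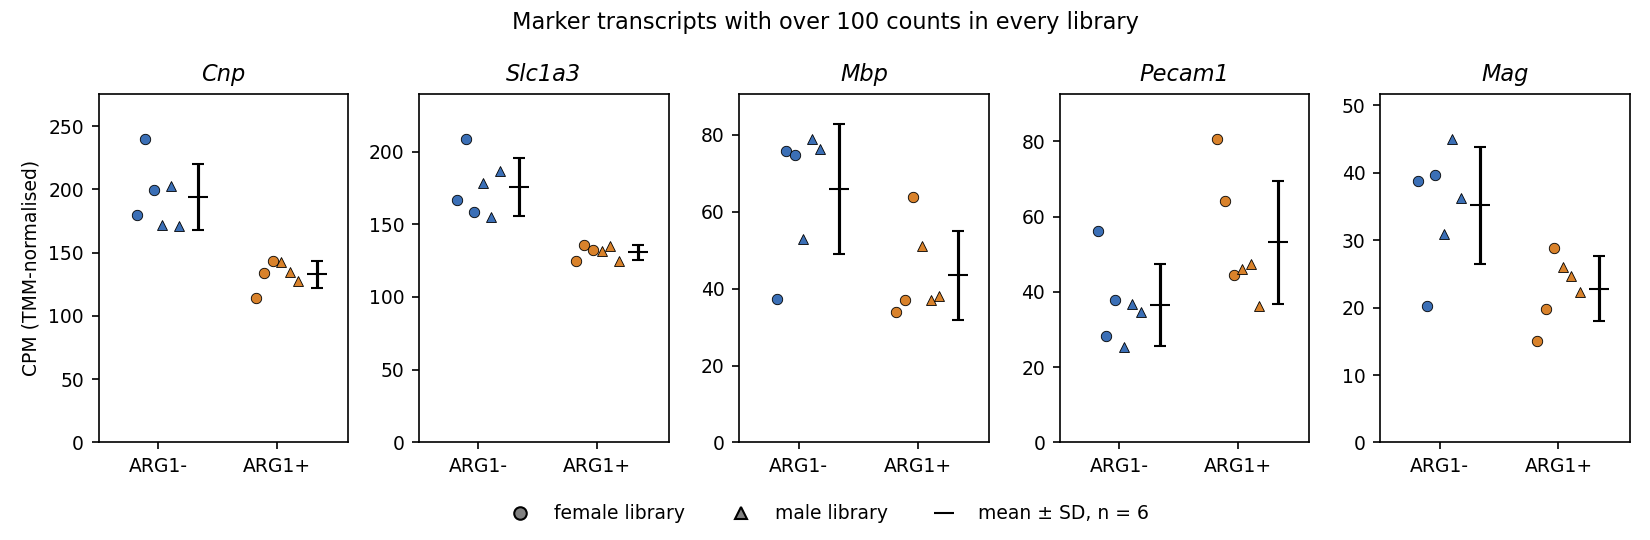
Each panel plots 1 of the 5 marker transcripts with over 100 counts in every library, as TMM-normalised CPM on the vertical axis from 0, with ARG1- libraries in blue, ARG1+ libraries in orange, circles for females, triangles for males, and the mean ± SD of 6 libraries beside them. The populations are separate for *Cnp* (lowest ARG1- library 171, highest ARG1+ library 143 CPM) and *Slc1a3* (155 and 136 CPM), and overlap for *Mbp*, *Pecam1* and *Mag*.

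The remaining oligodendrocyte genes were sparse. *Mobp*, a basic protein of the myelin major dense line, was over 3 counts in 11 of the 12 libraries and had 5.10 ± 2.66 CPM (SD, n = 6) in ARG1- against 3.56 ± 2.28 in ARG1+ microglia (adjusted p = 0.731, edgeR). *Mog*, a glycoprotein on the outer face of myelin, was over 3 counts in 8 libraries and at 0 in 4, and its ARG1- libraries ran from 0 to 8.11 CPM (log2 fold change -2.25, SE 1.53, adjusted p = 0.367). *Cldn11*, the claudin of myelin tight junctions, reached at most 6 counts in any library and was not tested. Thus of the 6 genes of mature oligodendrocytes, 1 was called lower, and all 5 tested had a negative fitted value.

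Counts of the myelin genes were also set against each other within a library. There were 4.88 to 58.0 counts of *Mag* for each count of *Mog* in the 8 libraries where both were over 3 counts. *Cnp* to *Mbp*, which both had over 100 counts in every library, stayed within 2.25 to 4.81, and *Cnp* to *Slc1a3*, an oligodendrocyte and an astrocyte marker, within 0.916 to 1.31. With *Mag*, also over 100 counts in every library, the ranges were wider, 4.51 to 11.8 for *Cnp* to *Mag* and 0.267 to 1.04 for *Mag* to *Mbp*. Ratios of counts depend on transcript length, so that their range over libraries is given here and not which gene was the higher.

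The 4 genes of the oligodendrocyte lineage were seen in fewer libraries. *Olig1* and *Olig2* encode the helix-loop-helix factors that specify the lineage, *Pdgfra* the growth factor receptor of precursors and *Cspg4* the NG2 proteoglycan on their surface. *Olig1* was over 3 counts in 9 libraries, with 3.71 ± 3.12 CPM in ARG1- against 1.30 ± 1.16 in ARG1+ microglia (SD, n = 6 each), and 7.26% of its exon bases overlap a gene on the opposite strand. *Olig2* was over 3 counts in 4 libraries, and its fitted log2 fold change of 0.32 (adjusted p = 0.917, edgeR) had the opposite sign to its means, 0.622 CPM in ARG1- against 0.205 in ARG1+ microglia. This sign turned without the sex term (-1.60) and in 5 other alternatives. *Pdgfra* was over 3 counts in ARG1- female replicates 1 and 13, in ARG1- male replicate 5 and in ARG1+ female replicate 8, with 99, 320, 41 and 22 counts, and at 0 or 1 count in the other 8 libraries (adjusted p = 0.121). *Cspg4* had at most 28 counts and was not tested. None of the 3 lineage genes tested was called, and 1 of them had an unadjusted p under 0.05.

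Besides *Slc1a3*, the astrocyte genes were sparse, and none that was tested reached an unadjusted p under 0.05 in edgeR. *Slc1a2*, the other glial glutamate transporter (GLT-1), had 1.09 ± 1.01 CPM in ARG1- against 0.691 ± 0.753 in ARG1+ microglia (SD, n = 6 each, adjusted p = 0.822, edgeR). In the 8 libraries where both were over 3 counts, there were 61.1 to 975 counts of *Slc1a3* for each of *Slc1a2*. *Gfap*, the intermediate filament of astrocytes, had a mean of 1.17 CPM in ARG1- against 3.22 in ARG1+ microglia, and it was over 3 counts in all 6 ARG1+ and in 3 ARG1- libraries (log2 fold change 1.70, SE 1.43, adjusted p = 0.475). *Aqp4*, the water channel of astrocyte endfeet, was at 0 in 6 libraries and highest in ARG1- male replicate 14 (4.53 CPM, 153 counts). *Aldh1l1*, a folate enzyme of which 11.1% of the exon bases overlap an antisense gene, was at 0 in 7 libraries, and *Gja1*, the gap junction protein connexin 43, ranged from 0 to 9.89 CPM in ARG1- and from 0 to 5.11 CPM in ARG1+ libraries. Of the 6 astrocyte genes tested, 1 was called lower, and the fitted values of *Gfap* and *Aldh1l1* were positive.

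Of the other endothelial genes, *Cldn5*, the claudin of the blood–brain barrier, had 0 counts in all 12 libraries, which allows at most 0.102 CPM in a library. *Flt1*, a receptor for VEGF, had a median of 0.0849 CPM in ARG1- and 2.6 in ARG1+ libraries, and was over 3 counts in 3 and 5 of them. ARG1- male replicate 14 reached 2.64 CPM and ARG1+ male replicate 11 had 0, so that the populations overlapped (log2 fold change 3.01, SE 1.76, adjusted p = 0.289, edgeR).

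None of the neuronal transcripts was over 3 counts in every library. *Fez1*, an adaptor that links cargo to kinesin in axons (chromosome 9, 36821864 to 36878924, plus strand), was called lower. In ARG1- libraries it had 115, 152 and 259 counts in the females numbered 1, 2 and 13 and 346, 178 and 56 in the males numbered 5, 6 and 14. In ARG1+ libraries it had 0, 20 and 41 counts in the females numbered 7, 8 and 15 and 18, 1 and 24 in the males numbered 11, 12 and 16. Every ARG1- library stood above every ARG1+ library.

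As CPM, *Fez1* was 4.74 ± 2.57 in ARG1- against 0.499 ± 0.450 in ARG1+ microglia (SD, n = 6 each), and its log2 fold change was -3.26 (SE 0.94, adjusted p = 0.0346, edgeR). The call was kept in each of 6 alternatives of scaling, filter, terms or test that could be run on it, but in only 4 of the 12 fits that left out 1 library (ARG1- female replicate 1, ARG1- male replicate 14 and ARG1+ female replicates 7 and 15), and in the others the adjusted p reached 0.0741.

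*Sorbs2* encodes an adaptor between the actin cytoskeleton and signalling proteins (chromosome 8, 45507788 to 45827906, plus strand), and 3.77% of its exon bases overlap its antisense gene *Sorbs2os*. Its counts in ARG1- libraries were 82, 3 and 2 in females and 2, 10 and 161 in males, in the order of their numbers. ARG1+ libraries had 0 counts except for 1 count in male replicate 12. ARG1- male replicate 14 alone held 61.6% of its summed CPM, and 3 ARG1- libraries stood at 2 or 3 counts themselves, at or under the floor like the ARG1+ libraries. *Sorbs2* passed the filter on low counts only through ARG1- libraries.

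Set against a floor of 3 counts in each ARG1+ library, the mean of *Sorbs2* was at least 15.4-fold lower in ARG1+ microglia (1.29 ± 1.95 CPM, SD, n = 6, in ARG1-, adjusted p = 0.00837, edgeR). Without ARG1- male replicate 14 this bound was 7.06-fold. The ARG1- mean rested on male replicate 14 (4.77 CPM) and female replicate 1 (2.46 CPM), while the ARG1- median was 0.205 CPM. The bound thus holds for the means and not for each ARG1- library. *Sorbs2* was called without each of 11 libraries, and without ARG1+ male replicate 12 the adjusted p was 0.0598. The number of marker transcripts called then fell to 2, *Cnp* and *Slc1a3*.

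The other neuronal genes were not called. *Snap25*, the SNARE protein of synaptic vesicle release, was over 3 counts in 11 libraries, with 2.15 ± 0.895 CPM in ARG1- against 1.03 ± 0.720 in ARG1+ microglia (SD, n = 6 each, log2 fold change -1.04, adjusted p = 0.455, edgeR). *Syt1*, the calcium sensor of release, rested on ARG1- male replicate 6, which held 68.6% of its summed CPM, and was at 0 in 6 libraries. *Meg3*, a long non-coding RNA of neuronal nuclei, ranged from 0.0901 to 11.9 CPM in ARG1- and from 0 to 2.74 CPM in ARG1+ libraries (log2 fold change -2.82, SE 1.37, adjusted p = 0.196).

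Among genes of the neuronal cytoskeleton, *Tubb3*, a tubulin of young neurons, had 2.41 ± 1.99 CPM in ARG1- against 0.753 ± 0.760 in ARG1+ microglia (adjusted p = 0.419), and *Stmn2*, a regulator of microtubules in growth cones, 1.49 ± 1.32 and 0.939 ± 0.515 CPM (adjusted p = 0.706). *Map1b*, a microtubule-binding protein of growing axons, had 2.09 ± 2.21 and 2.02 ± 1.22 CPM (SD, n = 6 each, adjusted p = 0.735). These 3 genes were over 3 counts in 9 to 11 libraries.

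*Camk2a*, the kinase of excitatory synapses, was over 3 counts in all 6 ARG1+ and in 4 ARG1- libraries, with medians of 0.611 and 0.328 CPM (adjusted p = 0.627, edgeR). *Gad2*, an enzyme of GABA synthesis, was over 3 counts in 5 ARG1+ libraries and in ARG1- male replicate 14, with 93 counts at most (log2 fold change 3.97, SE 1.72, adjusted p = 0.145). Without ARG1- male replicate 14 it was called higher (adjusted p = 0.0256, edgeR). The remaining ARG1- libraries had at most 2 counts of *Gad2*, so it then passed the filter on low counts only through ARG1+ libraries. *Gad1*, the sister enzyme, had 61 counts in ARG1+ female replicate 15 and 0 in the other 11 libraries. *Nrxn3*, a presynaptic adhesion molecule, never exceeded 6 counts. In all, 2 of the 10 neuronal genes tested were called lower, with a median log2 fold change of -1.36, 7 fitted lower and 3 higher. These 2 are *Fez1* and *Sorbs2*, picked with their change known, so the count is no evidence about neuronal genes. Of the 8 others, 0 were called in edgeR, with *Gad2* alone at an unadjusted p under 0.05, and 0 in DESeq2's Wald test, which gave *Syt1* no adjusted p. The median log2 fold change of these 8 was -0.78.

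**Figure D3:**
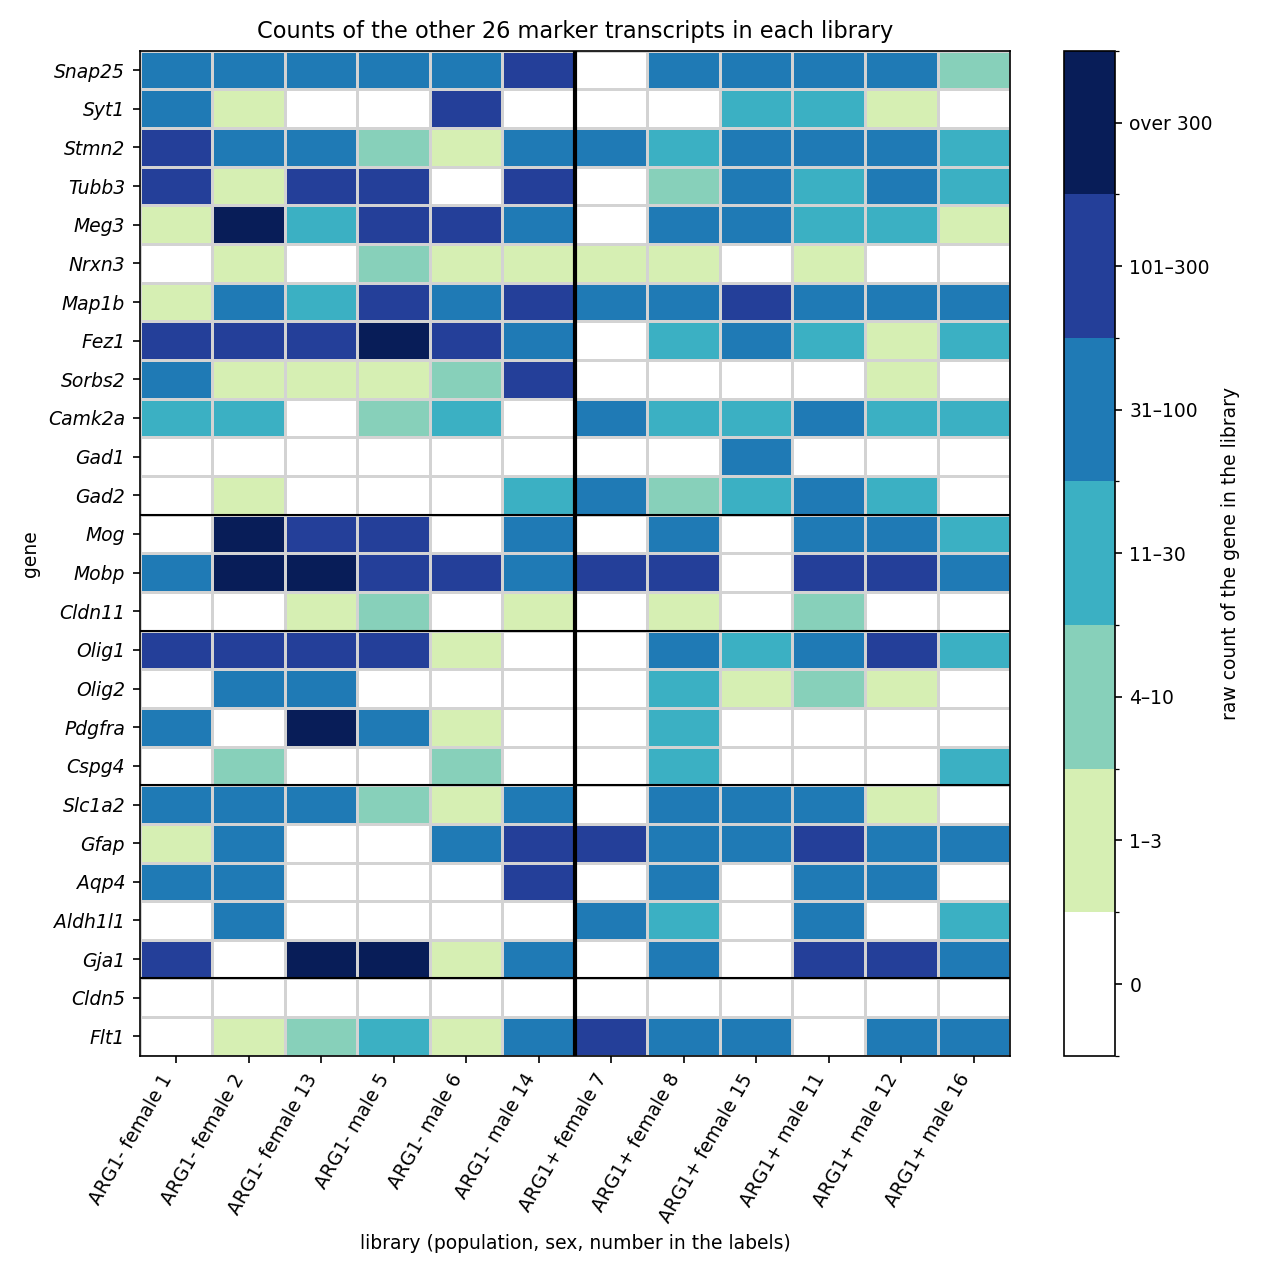
The heat map gives the raw count of each of the other 26 marker transcripts (rows, in the order neuron, oligodendrocyte, oligodendrocyte lineage, astrocyte, endothelial) in each of the 12 libraries (columns, ARG1- left and ARG1+ right of the thick line), in steps from 0 (white) to the highest counts (darkest). Most rows hold both dark and white cells within 1 population, ARG1+ female replicate 7 has 17 genes at 0, and ARG1+ female replicate 8 has 4.

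The number of the 26 sparse transcripts that a library held had nearly the same median in both populations and a wider range among ARG1+ libraries. Over 3 counts were 10 to 16 of them in ARG1- libraries (median 14.5) and 8 to 20 in ARG1+ libraries (median 14), with ARG1+ female replicate 7 the lowest and ARG1+ female replicate 8 the highest. The 2 libraries are from the same sex and population and differ by little in depth (30712115 and 28356659 counts). Which sparse genes were on also changed: ARG1+ female replicate 7 had the highest CPM of *Gfap*, *Gad2*, *Aldh1l1*, *Camk2a* and *Flt1* of all 12 libraries and 0 counts of *Snap25*, *Fez1*, *Tubb3*, *Meg3*, *Mog*, *Olig1* and *Gja1*.

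Summed over each cell type within the 31 genes, the oligodendrocyte and astrocyte genes were separate between the populations and the others overlapped. The oligodendrocyte sum was 258.5 to 347 CPM in ARG1- and 163 to 243 in ARG1+ libraries, and the astrocyte sum 163 to 219.5 and 128 to 147, with *Cnp* and *Slc1a3* holding most of them. Relative to the plain library total, without TMM factors, the oligodendrocyte sums overlapped (234 to 336 and 176 to 251). Sums of the further genes of both types, which lie outside the 31, also overlapped. Further oligodendrocyte genes summed to 3.90 to 68.3 CPM in ARG1- and 0.793 to 27.7 CPM in ARG1+ libraries. For further astrocyte genes the ranges were 24.6 to 53.9 and 10.5 to 36.3 CPM. The neuronal sum was 9.31 to 26.6 CPM in ARG1- and 3.85 to 16.3 CPM in ARG1+ libraries, where ARG1+ female replicate 15 stood apart from the other 5, which did not exceed 8.14. The lineage sum was 0 to 11.3 and 0 to 4.87, and the endothelial sum, mostly *Pecam1*, 28 to 56.1 and 38.7 to 83.3.

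Over all 31 genes the ranges were 500 to 615 CPM in ARG1- and 364 to 442 in ARG1+ libraries, separate under each of 3 scalings and also without *Fez1* and *Sorbs2* (494 to 611 and 363 to 442). Most of this sum came from the genes with over 100 counts in every library, which include the called *Cnp* and *Slc1a3*. Those genes summed to 460 to 572.5 CPM in ARG1- and 349 to 412 in ARG1+ libraries. Over the 26 sparse genes the ranges were 35.0 to 53.7 and 14.4 to 29.9. This separation rested on the genes picked with their change known, since without *Fez1* and *Sorbs2* the sparse sums overlapped (28.7 to 49.8 and 13.7 to 29.2). As a share of the summed microglial markers, which were themselves lower in ARG1+ libraries, the 31 genes were 0.589% to 0.866% in ARG1- and 0.552% to 0.757% in ARG1+ libraries, and these ranges overlapped.

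**Figure D4:**
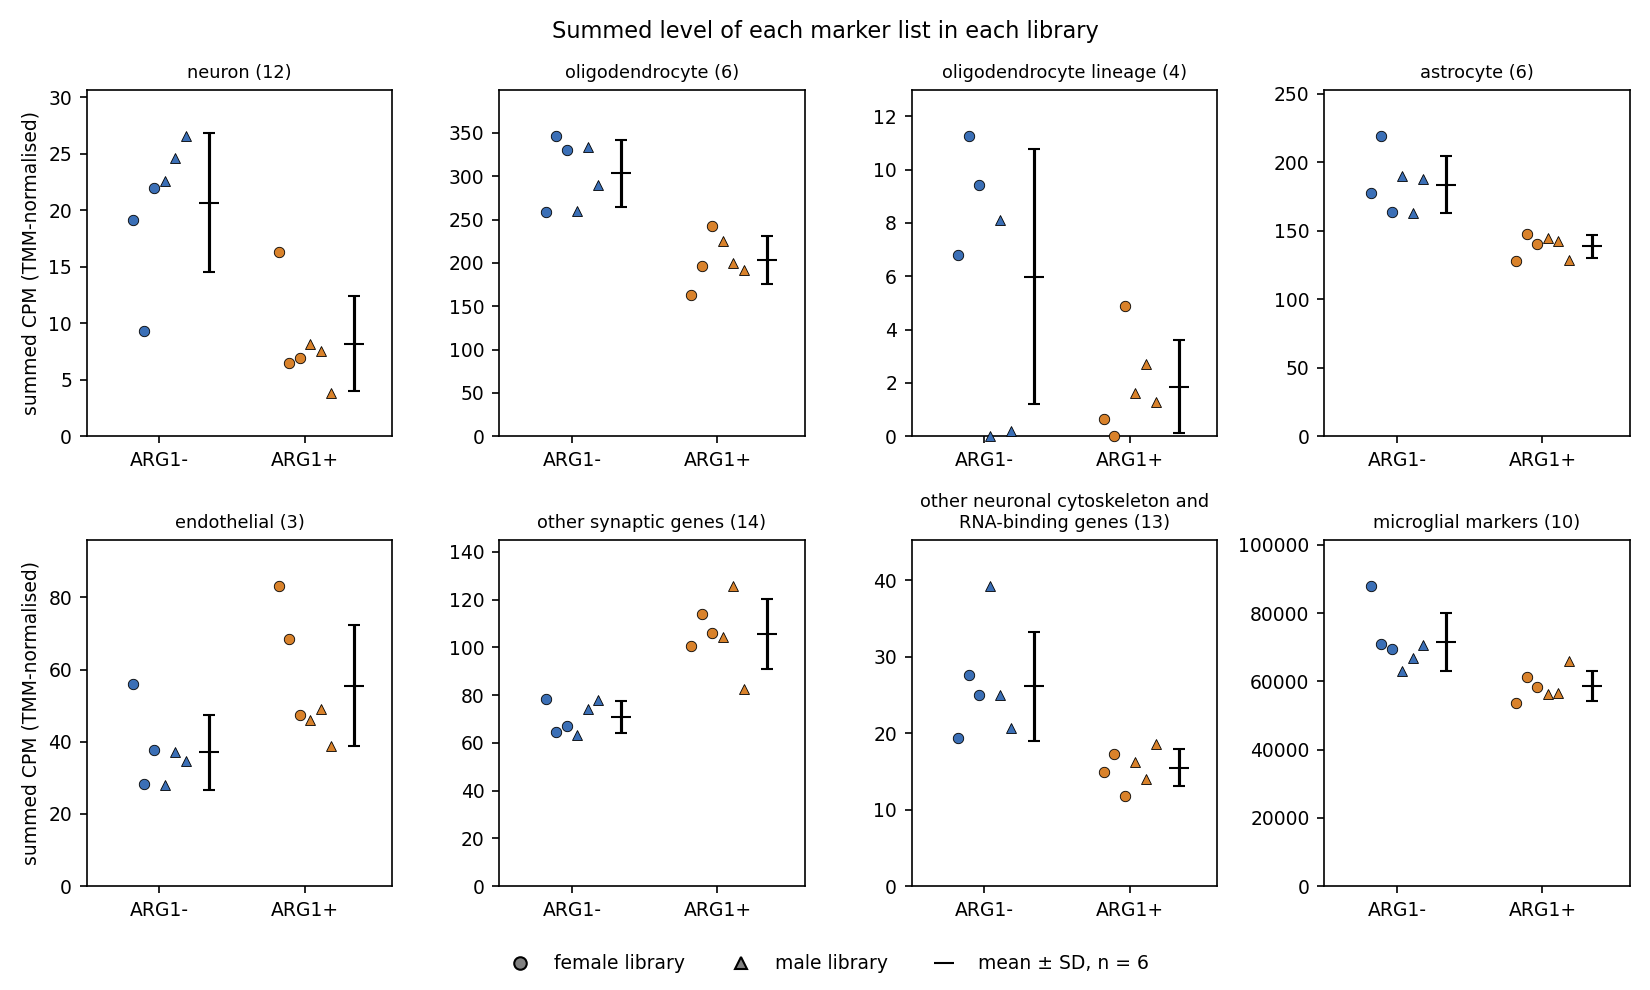
Each panel sums the TMM-normalised CPM of 1 list of marker genes (number of genes in brackets) in each library, on a vertical axis from 0, with ARG1- libraries in blue, ARG1+ in orange, circles for females, triangles for males and the mean ± SD of 6 libraries beside them. The ARG1+ libraries lie below the ARG1- libraries for oligodendrocyte (163 to 243 and 258.5 to 347 CPM), astrocyte and other neuronal cytoskeleton genes, above them for other synaptic genes (82.5 to 126 and 63.4 to 78.2 CPM), and overlap them in the other panels. Of the 11 other synaptic genes tested singly, 6 were fitted higher and 5 lower, and *Vamp2* alone was called.

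Further genes of these cell types and of mural, ependymal, choroid plexus, fibroblast and erythroid cells, on lists set apart from the 31 and holding 133 genes in all, were read from the same fit. Of the 133, 76 were tested, with 3 called higher, 2 lower and a median log2 fold change of -0.72, where 3 of the 5 called genes passed the filter through 1 population alone. Of 14 other synaptic genes, 11 were tested, with 6 fitted higher, 5 lower and a median log2 fold change of 0.025. Of these, 1, *Vamp2*, was called higher. *Vamp2*, the vesicle SNARE that pairs with SNAP-25, had 28.3 ± 5.91 CPM in ARG1- against 48.1 ± 6.52 in ARG1+ microglia (SD, n = 6 each, log2 fold change 0.77, SE 0.16, adjusted p = 0.00662, edgeR), with ranges of 21.5 to 38.9 and 37.6 to 55.9 CPM that met at 1 library of each.

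Of 13 other genes of the neuronal cytoskeleton and RNA binding, led per exon length by *Elavl4*, 10 were tested and 0 called in edgeR, with 2 at an unadjusted p under 0.05 and a median log2 fold change of -0.80. Their sum was 19.4 to 39.3 CPM in ARG1- and 11.8 to 18.7 CPM in ARG1+ libraries, and overlapped relative to the plain library total. Of 10 genes of striatal projection neurons, 3 were tested, with 2 fitted higher and a median log2 fold change of 0.46. The 1 fitted lower, *Ppp1r1b*, which encodes DARPP-32, fell from 5.11 ± 3.02 to 1.39 ± 1.18 CPM (log2 fold change -2.06, SE 0.63, adjusted p = 0.0431, edgeR). Another 3 of the 10 were never over 3 counts. Of 8 cholinergic genes, 6 were never over 3 counts, and *Ache*, the acetylcholine esterase, was the 1 that was tested (adjusted p = 0.647). Of 7 further transmitter genes and 4 neuronal nuclear RNAs, 1 each was tested and 0 called in edgeR, with 0 at an unadjusted p under 0.05. The nuclear RNA tested was *Snhg11*, with 0.483 ± 0.575 CPM in ARG1- against 0.118 ± 0.166 in ARG1+ microglia.

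The 11 further oligodendrocyte genes, 5 of precursors, 12 of astrocytes and 11 of neuroblasts and progenitors had 0 calls in edgeR, with 1, 2, 1 and 2 genes at an unadjusted p under 0.05. Precursor genes were led by *Gpr17*, a receptor of differentiating precursors, with 3.23 ± 3.66 and 1.23 ± 2.10 CPM in ARG1- and ARG1+ microglia. *Ndrg2*, the astrocyte gene of the highest level per exon length on its list, had 8.82 ± 4.86 CPM in ARG1- against 7.86 ± 3.52 in ARG1+ microglia, and *Tubb2b*, that of the progenitor list, 11.8 ± 2.85 and 14.7 ± 2.48. Of 12 further endothelial genes, 6 were tested, with 3 fitted higher, 3 lower and a median log2 fold change of -0.32. The sums of this list overlapped, with 51.2 to 82.9 CPM in ARG1- and 49.6 to 93.0 CPM in ARG1+ libraries. *Vwf*, the von Willebrand factor, was the 1 called, and it was higher (adjusted p = 0.0327, edgeR). No ARG1- library had over 3 counts of it, and so it passed the filter on low counts only through ARG1+ libraries, which ran from 0 to 5.23 CPM. Against that floor the difference was at least 17.5-fold, and at least 8.03-fold without ARG1+ male replicate 11. *Eng*, the most abundant of that list per exon length, had 58.8 ± 12.7 and 62.8 ± 16.5 CPM (adjusted p = 0.839). Of 8 mural genes, led by *Tagln*, 2 were tested and 0 called in edgeR, with 0 at an unadjusted p under 0.05.

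Markers of cells outside these types were also present and varied with single libraries. The 8 ependymal and choroid plexus genes summed to 377 CPM in ARG1- female replicate 1 and 303 CPM in ARG1+ female replicate 7, with medians of 60.01 in ARG1- and 68.4 in ARG1+ libraries and *Ttr*, the transthyretin of choroid plexus, as the most abundant per exon length, and 0 of 5 tested were called, with 0 at an unadjusted p under 0.05. The 5 erythroid genes were 3.69 to 17.8 CPM in ARG1- and 0 to 3.39 CPM in ARG1+ libraries, and 1 of them, *Hbb-bt*, was called lower (at least 8.67-fold, 5.76-fold without ARG1- female replicate 2, adjusted p = 0.00866), with no ARG1+ library over 3 counts. *Col1a2*, of 5 fibroblast genes, was called higher (at least 4.82-fold, adjusted p = 0.0170), with at most 0.997 CPM in any library and no ARG1- library over 3 counts. *Hbb-bt* and *Col1a2* thus passed the filter only through the population where they were high. Of 8 genes of border macrophages, the cells that the CD206 gate was set to exclude, 5 were tested and 0 called in edgeR, with 0 at an unadjusted p under 0.05. Their transcripts were still present, with sums of 106 to 141 CPM in ARG1- and 111.5 to 237 CPM in ARG1+ libraries, which overlapped. The part of such cells in the levels of the 31 transcripts was not tested.

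The sexes were compared separately in ARG1- and ARG1+ microglia, in a fit of the 4 groups of 3 libraries. In ARG1- microglia 0 of the 26 marker transcripts tested were called in edgeR, where 0.0946% of all genes were, and in ARG1+ microglia 0, where 0.0355% were. For the difference between the sex effects of the populations, 0 were called, against 0% of all genes. At an unadjusted p under 0.05 there were 3, 0 and 1 of them, against 1692, 528 and 1576 of the 16908 genes tested. DESeq2's Wald test also called 0 of them in each comparison. In ARG1- microglia the 3 were *Map1b* (0.530 CPM in females, 3.65 in males), *Olig2* (1.24 and 0) and *Flt1* (0.0538 and 1.05), all with an adjusted p of at least 0.440. *Cnp* had 206 CPM in ARG1- females and 182 in ARG1- males, and 130 and 135 in ARG1+ females and males. For *Slc1a3* the levels were 178 and 173 in ARG1- and 131 and 130.5 in ARG1+ microglia. That the ARG1- means of these 2 genes lay above the ARG1+ means in both sexes follows from the separation of all their ARG1- from all their ARG1+ libraries. It is no further result about the sexes.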

How the data were processed

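Reads were 75-bp single-end, from SMART-Seq v4 cDNA and Nextera XT libraries. The authors demultiplexed with bcl2fastq 2.20.0, aligned to GRCm38 with STAR 2.6.1d and counted reads on genes with featureCounts 1.5.1. The deposited values are these raw counts, without normalization, and 0 columns were left unused. GENCODE M21 matched 55227 of the 55487 identifiers. Groups follow the sample titles. According to the study the replicates of a sex are 3 litters, each of several pooled brains, and the labels do not say which ARG1+ and ARG1- libraries came from the same one, so no pairing was used.

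Counts were analysed in R 4.3.3 with edgeR 4.0.16 (filterByExpr on the 4 groups, TMM, glmQLFit and glmQLFTest with sex and ARG1 status, Benjamini–Hochberg adjustment over all genes tested, limit 0.05), and the sexes in a fit of the 4 group means. CPM per kilobase divides by union exon length. On simulated counts of 16908 genes for ARG1+ against ARG1-, 200 were changed, in equal numbers 2-fold and 4-fold. The test called 36 of the genes changed 2-fold, 65 of those changed 4-fold and 1 unchanged. Most 2-fold changes were thus missed.

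The 31 genes and all lists were chosen with earlier results of these data known. Named genes are the 31 and, of each further list, the called genes (at most 3 by size of change) and the 1 of the highest level per length. The results of some genes covered by this rule are not reported here. Alternatives were DESeq2 1.42.0 (size factors, Wald test), no filter, 10 counts or more in every library, ARG1 status alone, a term for the libraries numbered 13 to 16, robust empirical Bayes, plain library totals for the sums, and leaving out each library. The split at 100 counts, and values without *Fez1* and *Sorbs2* or with bounds that leave out a library, were added after the data were seen.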

Additional observations from a re-analysis of the deposited data

Results flagged for a closer look

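In each population of 6 libraries, a library was singled out where its gap to the nearest other library was a larger share of the whole range than Dixon's test allows for 6 values. This was searched in 69 sets of values and found in 15, where chance would give about 3.45, and counts that are 0 in most libraries reach it easily.

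ARG1- male replicate 14 stood above the other ARG1- libraries for *Gad2* (0.385 CPM), *Gfap* (4.21), *Aqp4* (4.53) and *Flt1* (2.64). ARG1- male replicate 6 did so for *Syt1* (6.32 CPM), ARG1- male replicate 5 for *Cldn11* (0.159), ARG1- female replicate 2 for *Aldh1l1* (2.40) and ARG1- female replicate 1 for the summed endothelial genes (56.1).

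Among ARG1+ libraries, female replicate 15 stood high for *Map1b* (4.39 CPM), *Gad1* (1.74) and the summed neuronal genes (16.3). Female replicate 8 did so for *Olig2* (0.953) and *Pdgfra* (0.749), female replicate 7 for *Aldh1l1* (3.05), and male replicate 12 for *Sorbs2*, where its 0.0210 CPM is 1 count.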

How the results depend on the processing

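Marker transcripts called between the populations were 4 in edgeR and 2 to 6 over the alternatives, with 2 as the lowest and 6 as the highest also when 1 library was left out (2 without ARG1+ male replicate 12). Genes called were 2682, 4131 with DESeq2's Wald test, and 1753 to 2669 with 1 library left out. Between the sexes, 16 genes in ARG1-, 6 in ARG1+ and 0 for the difference became 392, 38 and 285 with the Wald test and 0, 0 and 0 with at least 10 counts in every library, and 11 to 48, 6 and 0 to 10 with 1 library left out, and 0 marker transcripts were called in each of these. The filter of 10 counts in every library drops any gene that 1 sex does not express, so it cannot call such genes. Fitted signs turned, in genes never called, for *Map1b* (-0.047 with ARG1 status alone), *Olig2* (-1.60 with ARG1 status alone and -0.18 with the term for libraries numbered 13 to 16) and with 1 library left out for *Stmn2* (-0.81 to 0.37), *Map1b* (-0.023 to 0.89), *Olig2* (-0.89 to 1.33), *Slc1a2* (-2.06 to 0.43) and *Aqp4* (-2.70 to 2.01). The cause was not tested. The levels of the sparse genes rest on few counts. No paired analysis was possible because the labels give the populations no shared numbers.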
